A study of Mus musculus with 6 samples.

Results

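Genes whose products form or remodel the extracellular matrix were followed across the immune cells of mouse mammary tumours: Ecm1, Fn1, Thbs1, Vcan, F13a1, Mmp12, Mmp14 and Mmp19, 8 of the 33696 features in the count files. The set was chosen by a measured value of these libraries, the lower level of Ecm1 under both combination labels, so the Ecm1 difference in those comparisons is a description of how the set was picked and carries no weight as a finding. Live CD45-positive cells (CD45 is a surface protein of blood-derived cells) were sorted from mammary tumours and sequenced as single cells captured in droplets, with 1 library for each of 6 treatment labels. The labels MRX, CTX and Combined are not spelled out by the submitters; the title of the series names inhibition of MERTK, a receptor of macrophages that binds dying cells through bridging proteins, together with cyclophosphamide, an alkylating chemotherapy drug. Libraries labelled ctxd18t and combod18t carry d18 in the label, read here as day 18, and the protocol, which is worded the same for every sample, states treatment 3 hours before harvest for mice of day 7. Dose, strain, age, tumour line and the number of mice behind a library are not given in the sources used here, and the VC library was not analysed here.

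Blood monocytes can give rise to tissue macrophages, and both produce part of the matrix around them. Fibronectin, thrombospondin-1 and versican make up a provisional matrix through which cells adhere and migrate, factor XIII subunit A is a transglutaminase that crosslinks fibrin and fibronectin, and matrix metalloproteinases cut matrix proteins and free what is bound to them. Ecm1 encodes a secreted glycoprotein that binds other matrix proteins and that is also made by activated and regulatory T cells.

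After filtering, 25653 cells of the 5 analysed libraries were kept (3845 to 8506 per library, median 6239 to 8940 UMIs, the unique molecular identifiers that mark captured transcripts), and 7771 of them fell into 4 clusters called monocyte-macrophage-like from marker genes. The class numbered 1365 cells from MRX, 4292 from CTX and 1166 from Combined, and 734 from ctxd18t against 214 from combod18t, with summed counts from 50243488 in CTX down to 2993931 in combod18t. All 15 class markers were detected in each library, at a summed level of 17444 to 23750 counts per 1000000 counts (CPM). The summed haemoglobin level in the class was 637 CPM in combod18t and at most 3.54 CPM in the other 4 libraries, and the 10 neutrophil markers summed to 1638 CPM in combod18t, 1009 CPM in ctxd18t and 407 to 585 CPM in the rest. The part of these transcripts in the results was not tested. A further 2 clusters of 811 and 291 cells, which had macrophage transcripts together with T-cell or plasmacytoid dendritic-cell transcripts at more than 2 times the usual depth, were left out of the class by a rule set after the data were seen. In combod18t the larger of them held 149 cells, against 214 in the class.

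The cell barcodes of each library carried a single pair of bases at the position that marks the multiplexing set. ctxd18t carried the set that the protocol assigns to the combination, shared with Combined, and combod18t carried the set assigned to CTX. The protocol text gives no sets for the day 18 libraries, so these labels cannot be checked from the barcodes, and every direction at day 18 rests on the label of the library. Of the cell barcodes, 34 occurred in both CTX and combod18t and 21 in both Combined and ctxd18t, with 0 shared between any other pair. Each group is 1 library, so no difference below has a replicate check and no test was run. Intervals in parentheses are 95% and cover counting error only and say nothing of how mice vary.

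The windows upstream of Ecm1, Mmp12 and Vcan are shown because the class levels of Ecm1 and Mmp12 were lower, and that of Vcan higher, under both combination labels. Fn1 and Thbs1 had no entry in the promoter table used here. Each runs from 250 bases before the transcript start to the base before it, 5′ to 3′, from RefSeq (GRCm38.p6, not the GRCm39 build named for the counts). Of the 8 members, 5 had an entry in this table, and Mmp12 has a pair of starts. Capitals mark matches to 5 short motifs searched on both strands: AP-1 (TGANTCA), the PU.1 core (GAGGAA), the interferon-activated GAS site (TTCNNNGAA), the TATA box (TATAAA) and the GC box (GGGCGG).
Ecm1 (chr3:95739570-95739819, minus strand): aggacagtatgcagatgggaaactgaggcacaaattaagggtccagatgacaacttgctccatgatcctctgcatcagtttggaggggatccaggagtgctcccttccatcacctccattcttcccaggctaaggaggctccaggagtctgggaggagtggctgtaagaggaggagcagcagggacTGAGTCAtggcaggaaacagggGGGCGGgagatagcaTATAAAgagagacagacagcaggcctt
Mmp12, upstream start (chr9:7344147-7344396, plus strand): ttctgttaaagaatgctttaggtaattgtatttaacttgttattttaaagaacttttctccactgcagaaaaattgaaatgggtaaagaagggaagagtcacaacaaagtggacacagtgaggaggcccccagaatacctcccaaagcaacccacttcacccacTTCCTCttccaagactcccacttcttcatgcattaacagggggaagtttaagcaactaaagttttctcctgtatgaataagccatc
Mmp12, downstream start (chr9:7347124-7347373, plus strand): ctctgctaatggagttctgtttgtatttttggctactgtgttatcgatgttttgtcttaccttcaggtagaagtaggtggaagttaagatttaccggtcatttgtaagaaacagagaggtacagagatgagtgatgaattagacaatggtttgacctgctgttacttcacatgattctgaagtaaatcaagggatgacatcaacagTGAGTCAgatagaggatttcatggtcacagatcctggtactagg
Vcan (chr13:89742513-89742762, minus strand): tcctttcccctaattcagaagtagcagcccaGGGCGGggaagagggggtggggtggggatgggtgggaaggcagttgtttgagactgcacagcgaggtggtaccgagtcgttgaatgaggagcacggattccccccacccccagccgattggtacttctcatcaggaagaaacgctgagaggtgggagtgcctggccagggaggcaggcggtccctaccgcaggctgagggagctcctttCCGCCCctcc
The Ecm1 window held an AP-1 match 64 to 58 bases before the start, a GC box at 42 to 37 bases and a TATA box at 27 to 22 bases. The downstream Mmp12 window held an AP-1 match at 44 to 38 bases, and the upstream Mmp12 window a PU.1 core on the opposite strand at 86 to 81 bases. Vcan had 2 GC boxes and no TATA box. None of the 4 windows held the GAS letters. Over all 32851 windows of this length in the table, 6.75% held the AP-1 letters, 23.3% the PU.1 core, 7.02% the GAS letters, 12.4% the TATA box and 32.7% the GC box. No 2 matches overlapped in the printed windows, and a match describes the letters only.

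Ecm1 in the monocyte-macrophage-like class stood at 66.2 CPM in MRX (61.6 to 71.0), 50.1 in CTX (48.1 to 52.1) and 27.1 in Combined (24.5 to 29.97), with 54.6 in ctxd18t (50.3 to 59.1) against 24.7 in combod18t (19.4 to 31.0). Both libraries with a combination label were the lowest of the 5, and their intervals overlapped each other but none of the rest. On the log2 scale of CPM + 1, the ratio was -0.86 for Combined against CTX (-1.04 to -0.73) and -1.11 for combod18t against ctxd18t (-1.51 to -0.79). These are the comparisons by which the gene was picked. The combod18t value rests on 74 counts in 50 cells, with at most 6 from a single cell, while CTX had 2516 counts in 1343 cells. When each cell was thinned to 1000 UMIs in a single random draw, the Combined ratio became -0.49 (-0.99 to -0.03, 45 against 235 counts). That interval includes the unthinned -0.86. The day 18 ratio turned to 0.13, from 10 counts in combod18t and 31 in ctxd18t (-1.06 to 1.204).

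Ecm1 also differed between the states within the class, which the libraries held in unlike proportions. The 4 clusters were an interferon-inflammatory macrophage-like cluster led by Ly6i, Lpl and Cxcl9 (cluster 0), a C1q macrophage-like cluster (cluster 2), a monocyte-like cluster with classical and non-classical markers (cluster 5) and a lipid-hypoxia macrophage-like cluster led by Ccl12 and Ccl7 together with interferon-stimulated genes such as Rsad2 (cluster 8). Cluster 8 had the highest score for the lipid-hypoxia markers (1) and also scored 0.84 for the interferon-inflammatory markers. All 9 of the latter were seen in at least 10% of its cells. None of the 8 genes was used to form the 4 clusters. Over all libraries Ecm1 was 69.3 CPM in the Ccl12 Ccl7 cluster (65.7 to 73.0), 64.8 in the C1q cluster (61.6 to 68.2), 37.6 in the monocyte-like cluster (34.5 to 40.9) and 27.7 in the Ly6i Lpl Cxcl9 cluster (25.9 to 29.5). The intervals of the Ccl12 Ccl7 and C1q clusters overlapped. The Ly6i Lpl Cxcl9 cluster made up 66.8% of the class in Combined, 46.5% in CTX and 3.81% to 5.14% in the other 3 libraries. The order of the pooled levels does not hold in each library: in CTX the monocyte-like cluster had the lowest Ecm1, at 21.0 CPM (16.5 to 26.3), below the 31.0 CPM of the Ly6i Lpl Cxcl9 cluster (28.7 to 33.4).

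Comparing Combined with CTX state by state, Ecm1 was 20.2 against 31.0 CPM in the Ly6i Lpl Cxcl9 cluster, 55.8 against 74.9 in the C1q cluster and 37.0 against 66.4 in the Ccl12 Ccl7 cluster. In the monocyte-like cluster it was 28.8 against 21.0 CPM, from 30 and 74 counts, with a log2 ratio of 0.44 (-0.20 to 1.09). Giving the states the same weights in both libraries brought the class ratio from -0.86 to -0.51, and at day 18 from -1.11 to -0.74. The day 18 weights take in the Ccl12 Ccl7 cluster, where combod18t had 66.6 CPM from 21 counts in 14 cells. They also take in the Ly6i Lpl Cxcl9 cluster, where it had 2 counts in 11 cells. At day 18 the C1q cluster had 16.6 CPM in combod18t against 37.1 in ctxd18t, and the monocyte-like cluster 23.9 against 42.1. In that C1q cluster the summed haemoglobin level was 1574 CPM in combod18t and 4.86 in ctxd18t, and this holds for every day 18 value of the C1q cluster given here. Its part in those values was not tested. Those are the only states with at least 50 cells in both day 18 libraries, since combod18t had 11 cells in the Ly6i Lpl Cxcl9 cluster and 14 in the Ccl12 Ccl7 cluster.

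**Figure D1:**
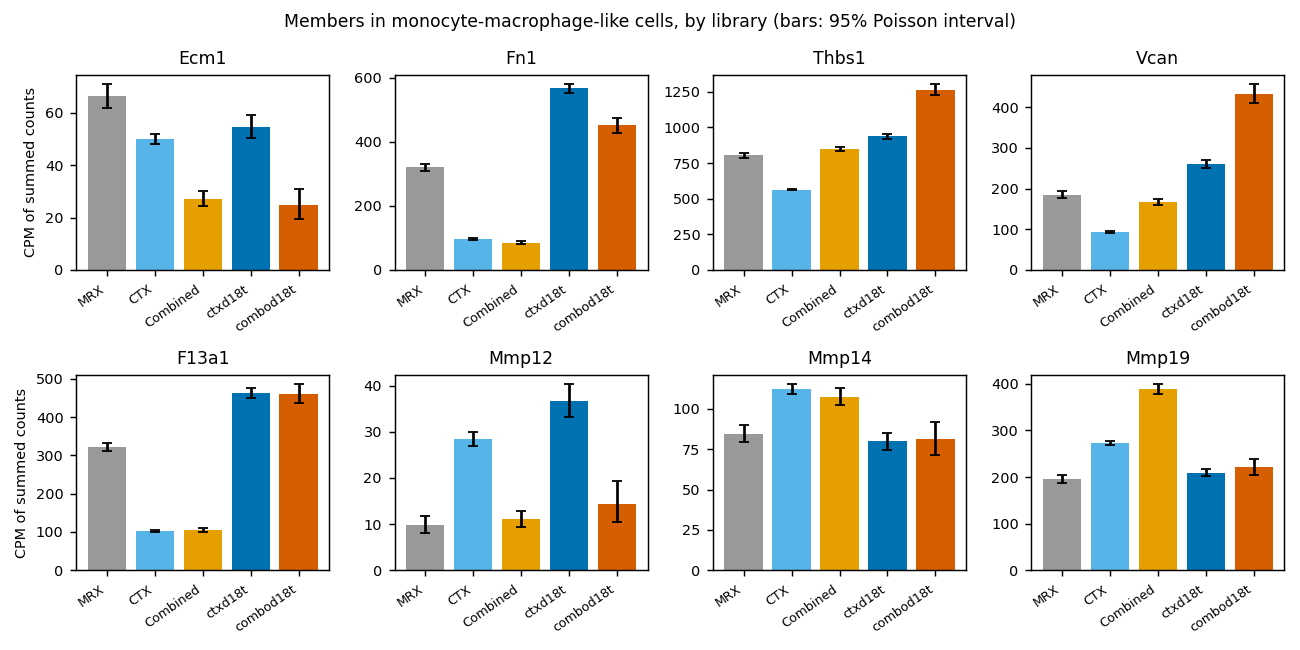
Levels of the 8 genes in monocyte-macrophage-like cells of each library, as CPM of summed counts on axes that start at 0, with 95% Poisson intervals that cover counting error only. Ecm1 was lowest in Combined and combod18t, Fn1 and F13a1 were lowest in CTX and Combined, and Mmp12 was highest in CTX and ctxd18t.

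Outside the class, the highest Ecm1 level was in a cluster of 257 shallow cells (median 1370 UMIs) led by Col3a1 and Dcn, collagen and proteoglycan genes of fibroblasts, at 96.2 CPM over all libraries (80.2 to 115) against 48.3 in the class. There it was 230 CPM in CTX and 85.1 in ctxd18t, from 64 and 54 counts, and rested on 2 to 4 counts in each of the other 3 libraries. The Col3a1 Dcn cluster held 0.313% to 4.69% of the Ecm1 counts of a library. T-like cells had 10.7 to 17.4 CPM per library, against 0.80 CPM in B-like cluster 1, taken as the background of free RNA (0.40 to 1.44, 11 counts in 2264 cells). Among the T-like clusters the level was highest in the cluster led by Foxp3 and Il2ra, genes of regulatory T cells, at 51.2 CPM (46.2 to 56.7), and second in a cluster led by Igfbp4 and Lef1, at 30.1 CPM (27.1 to 33.3). The cluster led by Gzmk and Cd8a had 1.36 CPM (0.68 to 2.44), and the NK-like class 1.73 CPM. In the Foxp3 cluster the libraries gave 55.7 CPM in MRX, 48.0 in CTX and 62.4 in Combined, with 64.8 in ctxd18t against 37.0 in combod18t. Combined was thus above CTX in the Foxp3 cluster, with overlapping intervals (49.0 to 78.2 and 37.3 to 60.9), whereas combod18t was below ctxd18t (29.5 to 45.9 against 52.1 to 79.6). T-like cells held 67.0% of all Ecm1 counts in combod18t and were 67.2% of its cells, and the monocyte-macrophage-like class held 13.1% and was 5.55% of the cells. In the other 4 libraries the class held 53.6% to 79.4% of the Ecm1 counts from 19.1% to 50.5% of the cells, and T-like cells 4.36% to 17.7% from 20.0% to 35.6% of the cells. These shares of counts follow both the level and the number of cells of each class.

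At a fixed 1000 UMIs per cell, 7.36% of monocyte-macrophage-like cells had an Ecm1 UMI in MRX (6.03 to 8.88), 4.80% in CTX and 3.79% in Combined, with 4.25% in ctxd18t against 4.21% in combod18t (1.94 to 7.83), against 0.0888% in B-like cluster 1 over all libraries (median depth 5200.5 UMIs). From 0 to 7 cells per library were too shallow for this. Without thinning the shares were 30.1%, 31.3%, 21.7%, 35.6% and 23.4% in the same order, at median depths of 8123, 9633.5, 10791, 13234.5 and 12768.5 UMIs per cell. The thinned shares of the 2 day 18 libraries did not differ beyond their counting intervals.

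**Figure D2:**
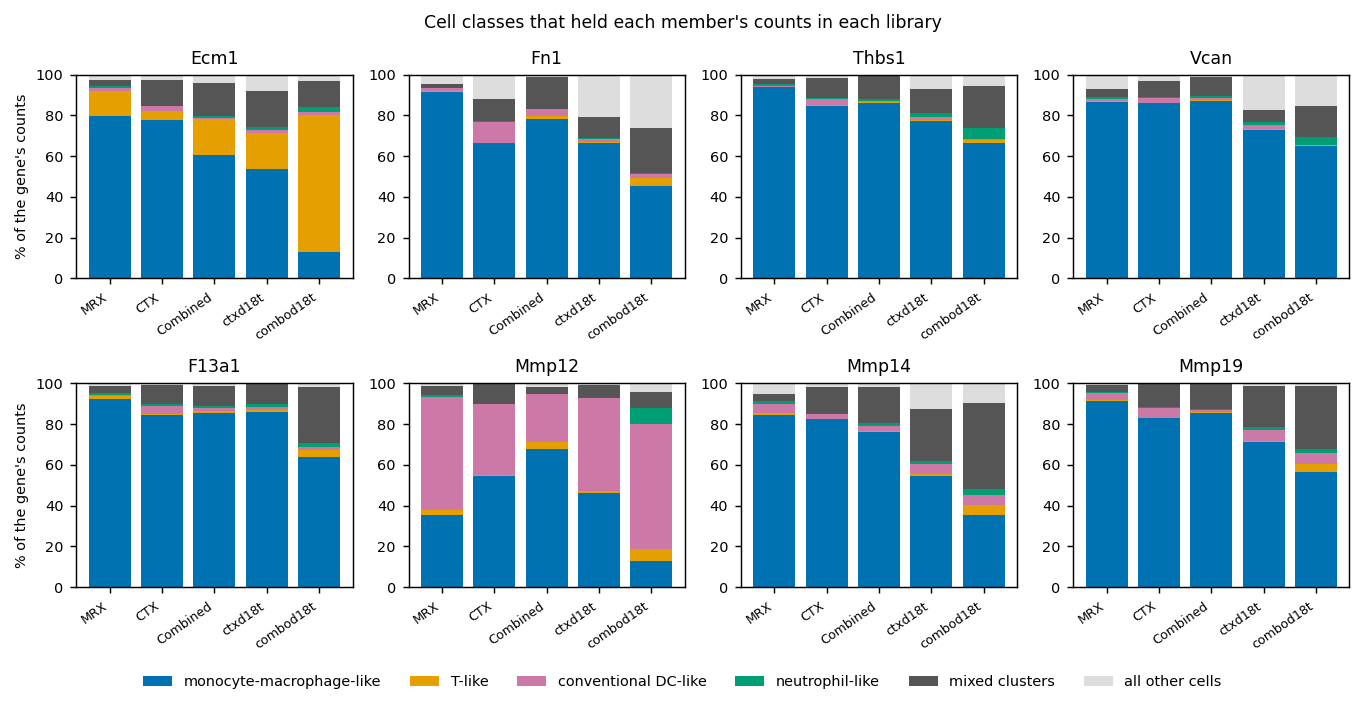
Share of each gene's counts in each library that came from monocyte-macrophage-like, T-like, conventional DC-like and neutrophil-like cells, from the 2 mixed clusters and from all other cells, in percent. T-like cells held most Ecm1 counts in combod18t, and conventional DC-like cells held 23.8% to 61.7% of the Mmp12 counts.

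Fn1, which encodes fibronectin, was 321 CPM in MRX (310 to 331), 96.2 in CTX (93.5 to 99.0) and 84.4 in Combined (79.7 to 89.3), with 567 in ctxd18t (554 to 582) against 452 in combod18t (428 to 476). CTX and Combined were the lowest, and both day 18 libraries were the highest. The log2 ratio was -0.19 for Combined against CTX (-0.28 to -0.10) and -0.33 for combod18t against ctxd18t (-0.42 to -0.24). The day 18 ratio went from -0.85 at resolution 0.5 to 0.035 when each library was clustered separately, so its direction depends on the clustering. By state at day 18 it was -0.56 in the C1q cluster (-0.83 to -0.30), beside haemoglobin at 1574 CPM in combod18t, and -0.05 in the monocyte-like cluster (-0.15 to 0.06). With 11 and 14 combod18t cells, it was 1.03 in the Ly6i Lpl Cxcl9 cluster (0.54 to 1.53) and -1.03 in the Ccl12 Ccl7 cluster (-1.30 to -0.77). In the C1q cluster Combined had 36.6 CPM against 101 in CTX, a log2 ratio of -1.45 (-1.87 to -1.09), while in the monocyte-like cluster it had 189 against 124, a ratio of 0.61 (0.36 to 0.86). The intervals of these opposite differences do not overlap. The monocyte-like cluster itself held unlike mixes: cells that finer clustering put in a group led by Ace, with low Fn1, were 33.9% of it in CTX (138 of 407) and 23.9% in Combined (27 of 113). Among its cells in the finer group led by Vcan, Fn1 was 315 CPM in Combined (263 to 374, 46 cells) against 228 in CTX (202 to 256, 139 cells). The highest Fn1 level of all was in the Col3a1 Dcn cluster, at 2326 CPM, which held 22.9% of the Fn1 counts in combod18t and 14.6% in ctxd18t. Within the monocyte-macrophage-like class the 7 fibroblast markers summed to 1.39 to 4.86 CPM, with Lum at 0 in MRX, Combined, ctxd18t and combod18t.

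Thbs1, the gene of thrombospondin-1, a secreted adhesion protein that can activate latent TGF-beta, was 803 CPM in MRX, 564 in CTX and 849 in Combined, with 937 in ctxd18t against 1265 in combod18t. Vcan, the gene of the large proteoglycan versican, was 185, 93.4, 167, 261 and 434 CPM in the same order. Both were lowest in CTX and highest in combod18t. The largest count from a single combod18t cell was 172 of 1298 for Vcan and 216 of 3786 for Thbs1. Vcan was seen in 35.5% of class cells in combod18t and 40.6% in ctxd18t. After thinning to a fixed depth the shares were 17.3% (12.5 to 23.0) and 13.7% (11.3 to 16.4), with overlapping intervals. The thinned log2 ratio of Vcan was 0.60 (0.21 to 0.99). Intervals of CPM and ratios treat counts as independent and so do not cover the spread between cells. Outside the class, Vcan was 305 CPM in the Col3a1 Dcn cluster and 194 in epithelial-like cells over all libraries, both above the 149 CPM of the class. Epithelial-like cells held 12.4% of the Vcan counts in ctxd18t and 14.0% in combod18t, and 0.366% to 3.82% in the other 3 libraries. The log2 ratio for Combined against CTX was 0.59 for Thbs1 (0.56 to 0.62) and 0.83 for Vcan (0.77 to 0.91). For combod18t against ctxd18t it was 0.43 for Thbs1 (0.38 to 0.49) and 0.73 for Vcan (0.64 to 0.83). With the mixed clusters kept in the class, the day 18 ratio of Thbs1 turned to -0.16 and that of Vcan went to 0.15. At resolution 0.5 they were -0.27 and 0.006, and with the same mix of states 0.11 and 0.43. The same mix gives weight to combod18t states of 11 and 14 cells.

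These 2 genes ran highest in the monocyte-like cluster in every library. Over all libraries Thbs1 was 1633 CPM there against 187 in the C1q cluster, and Vcan 457 against 14.9. In the monocyte-like cluster Vcan ran in order from 278 CPM in CTX (261 to 296) through 350 in MRX, 417 in Combined and 639 in ctxd18t to 956 in combod18t (904 to 1011). The intervals of neighbours did not overlap, but they do not cover the spread between cells. Among the cells of that cluster in the finer group led by Vcan, the levels of MRX (456 CPM), CTX (478) and Combined (427) overlapped in their intervals, below 791 in ctxd18t and 1219 in combod18t, so the order of the first 3 does not hold within this group. In the finer group led by Ace, Vcan was 508 CPM in Combined (417 to 613, 109 counts in 27 cells) against 82.1 in CTX (65.9 to 101). In the remaining cells of the cluster it was 360 against 250 CPM. In Combined against CTX, Vcan was higher in the Ly6i Lpl Cxcl9 cluster (167 against 95.4 CPM), the monocyte-like cluster and the Ccl12 Ccl7 cluster (170 against 115 CPM). In the C1q cluster it was lower (5.58 against 11.6 CPM, from 9 and 140 counts). Thbs1 was also lower in the C1q cluster, at 147 against 180 CPM, a log2 ratio of -0.29 (-0.49 to -0.10), and higher in each other state. At day 18 the direction differed between states. Vcan had a log2 ratio of 0.58 in the monocyte-like cluster (0.48 to 0.68) and of -1.93 in the C1q cluster (-3.33 to -1.06, from 8 and 110 counts), the cluster with haemoglobin at 1574 CPM in combod18t. Thbs1 had 0.17 in the monocyte-like cluster (0.11 to 0.23) and -0.44 in the C1q cluster (-0.70 to -0.20). In the other states, with 11 and 14 cells in combod18t, Vcan was lower in the Ly6i Lpl Cxcl9 cluster (-2.76, -5.97 to -0.90, from 2 and 33 counts) and in the Ccl12 Ccl7 cluster (-0.48, -0.95 to -0.05, from 45 and 760 counts), and the Thbs1 intervals included 0. The 14 combod18t cells of the Ccl12 Ccl7 cluster had neutrophil markers at 9183 CPM against 1023 in ctxd18t and T-cell markers at 716 against 393, whose part was not tested. Across the 17 combinations of cluster and library with at least 50 cells, Thbs1 and Vcan had a Pearson correlation of 0.98 on the log2 scale, a description of units that share libraries and depth.

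F13a1, the gene of the crosslinking enzyme factor XIII subunit A, was 323 CPM in MRX (312 to 333), 102 in CTX (98.8 to 104) and 104 in Combined (99.0 to 110), with 462 in ctxd18t (450 to 475) against 461 in combod18t (437 to 486). The intervals of CTX and Combined overlapped, as did those of the day 18 pair. The log2 ratio was 0.04 in the first pair (-0.05 to 0.12) and -0.003 in the second (-0.09 to 0.08). The day 18 ratio ranged from -0.50 at resolution 0.5 to 0.59 when each library was clustered separately. Within states both pairs differed more. In Combined against CTX, F13a1 was lower in the C1q cluster, at 37.2 against 79.4 CPM, a log2 ratio of -1.07 (-1.4955 to -0.72), and higher in the monocyte-like cluster, at 306 against 213 CPM, a ratio of 0.52 (0.33 to 0.72). As with Fn1, the share of the group led by Ace in the monocyte-like cluster differed between these libraries. At day 18, in the C1q cluster F13a1 was 67.2 CPM in combod18t and 253 in ctxd18t, a log2 ratio of -1.90 (-2.26 to -1.59), and in the monocyte-like cluster 900 and 824 CPM. In that same C1q cluster haemoglobin stood at 1574 and 4.86 CPM, as given with Ecm1. Platelets carry F13a1 and Thbs1 RNA, and the 9 platelet markers summed to 106 CPM in MRX, 32.5 in CTX and 9.49 in Combined, with 64.7 in ctxd18t against 46.8 in combod18t. Pf4 made up 88.1% to 97.4% of these sums, and it is also a leading gene of a finer cluster within the class, beside Folr2 and Ccl8. It is a leading gene of the C1q cluster too, where the haemoglobin gene Hbb-bs comes first. The other 8 platelet markers were each at 0 to 4.35 CPM, the highest being Ppbp in MRX, with Gp1bb at 0 in all 5 libraries and Gp9 in all but CTX. The part of platelet RNA in the F13a1 and Thbs1 levels was not tested.

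**Figure D3:**
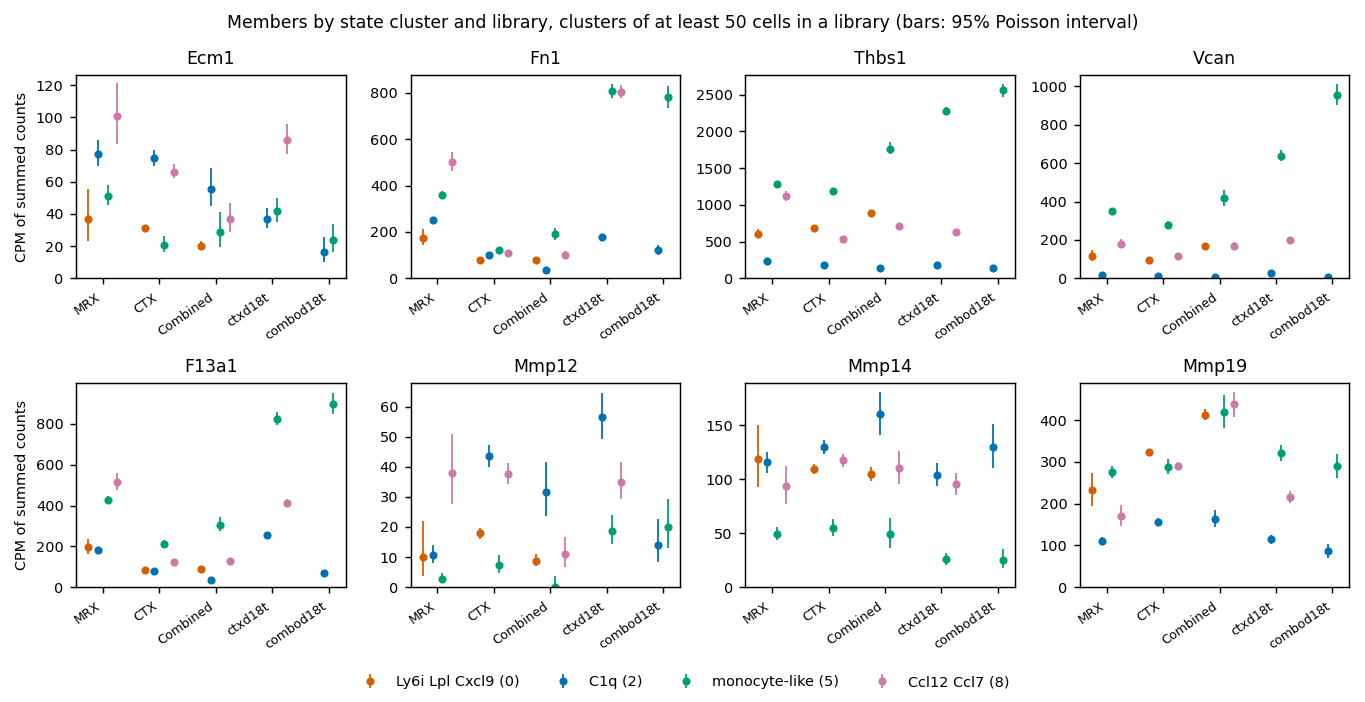
Levels of the 8 genes in each of the 4 monocyte-macrophage-like clusters by library, as CPM of summed counts with 95% Poisson intervals, shown where a library had at least 50 cells in the cluster. Thbs1, Vcan and F13a1 were highest in the monocyte-like cluster in CTX, Combined, and both day 18 libraries, and Mmp14 was lowest there in all 5.

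Mmp12, macrophage elastase, which degrades elastin, was 9.80 CPM in MRX (8.09 to 11.8), 28.4 in CTX (26.99 to 29.96) and 11.03 in Combined (9.37 to 12.9), with 36.6 in ctxd18t (33.2 to 40.3) against 14.4 in combod18t (10.4 to 19.3). CTX and ctxd18t were above the other 3 libraries, whose intervals overlapped. The log2 ratio was -1.29 for Combined against CTX (-1.61 to -1.13) and -1.29 for combod18t against ctxd18t (-1.84 to -0.90), the latter from 43 and 414 counts. Few cells carried these counts: 7 of 214 cells had an Mmp12 count in combod18t, with 17 of the 43 counts in 1 cell, and 32 of 734 in ctxd18t, with 151 of the 414 in 1 cell. The largest share of a single cell was 8.19% in CTX and 15.3% in Combined. These intervals treat counts as independent and so do not cover the spread between cells. When cells were thinned to 1000 UMIs, the ratio for Combined against CTX was -0.53 (-1.47 to 0.24), from 15 and 82 counts, and its interval included 0. The thinned day 18 ratio, -2.07 (-5.29 to -0.21), rests on 2 and 31 counts. Within states, Combined against CTX was 8.80 against 17.9 CPM in the Ly6i Lpl Cxcl9 cluster, 31.6 against 43.4 in the C1q cluster and 10.9 against 37.7 in the Ccl12 Ccl7 cluster. In the monocyte-like cluster of Combined 0 counts were found among 1041220, which allows up to 2.88 CPM by a floor of 3 counts, against 7.37 CPM in CTX. The C1q cluster had 14.1 CPM in combod18t, where haemoglobin was at 1574 CPM, and 56.6 in ctxd18t, and the monocyte-like cluster had 20.0 and 18.7.

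Mmp12 was higher in conventional DC-like cells than in the class, at 133 CPM over all libraries (127 to 139). At the finer clustering this lay in a cluster of 743 cells led by Cd209a and Mgl2, genes of type 2 dendritic cells, at 160 CPM (152 to 167). The Cd209a cluster had 111 CPM in MRX (94.98 to 128), 170 in CTX (159 to 181) and 45.2 in Combined (34.1 to 58.9), with 223 in ctxd18t (202 to 246) against 200 in combod18t (173 to 231). In the Cd209a cluster Combined was the lowest and did not overlap CTX, whereas the intervals of the day 18 libraries overlapped. The finer cluster led by Xcr1, a gene of type 1 dendritic cells, had 0 to 13.03 CPM.

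Mmp14, a membrane-bound metalloproteinase that activates pro-MMP2 and cuts collagen at the cell surface, spanned the narrowest range of the 8 genes by the ratio of its highest to its lowest library. It was 84.4 CPM in MRX, 112 in CTX and 108 in Combined, with 79.9 in ctxd18t against 81.2 in combod18t. The intervals of CTX and Combined overlapped, as did those of MRX, ctxd18t and combod18t. Its log2 ratio was -0.06 in the first pair (-0.15 to 0.02) and 0.02 in the second (-0.19 to 0.23), where it went to -0.74 when each library was clustered separately. In the C1q cluster it was higher under both combination labels, with a log2 ratio of 0.30 in the first pair (0.11 to 0.49) and 0.31 in the second (0.04 to 0.59), the latter beside haemoglobin at 1574 CPM in combod18t. In the other 3 states the intervals included 0 in both pairs. Unlike Thbs1 and Vcan, Mmp14 was lowest in the monocyte-like cluster, at 43.2 CPM (39.9 to 46.8) over all libraries, and highest in the C1q cluster, at 125 CPM (120 to 129). It was lowest in the monocyte-like cluster in each library, but the C1q cluster was the highest in CTX and Combined only. The Ly6i Lpl Cxcl9 cluster, with 70, 28 and 11 cells, was above it in MRX (119 against 115 CPM), ctxd18t (136 against 104) and combod18t (174 against 129), with overlapping intervals. Outside the class Mmp14 was 166 CPM in the Col3a1 Dcn cluster, above the 103 CPM of the class. The mixed cluster with T-cell transcripts held 41.1% of the Mmp14 counts in combod18t and 22.2% in ctxd18t.

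Mmp19, a secreted metalloproteinase that cuts basement membrane proteins, was 195 CPM in MRX (187 to 203), 272 in CTX (268 to 277) and 389 in Combined (379 to 399), with 210 in ctxd18t (201 to 218) against 220 in combod18t (204 to 238). Combined was the highest, and the day 18 intervals overlapped. The log2 ratio was 0.51 for Combined against CTX (0.47 to 0.56) and 0.07 for combod18t against ctxd18t (-0.05 to 0.20). The day 18 ratio ranged from -0.43 with the mixed clusters kept to 0.33 when each library was clustered separately. By state, Combined against CTX was 413 against 323 CPM in the Ly6i Lpl Cxcl9 cluster, 420 against 288 in the monocyte-like cluster and 438 against 290 in the Ccl12 Ccl7 cluster. In the C1q cluster the values were 164 and 157 CPM, with overlapping intervals. At day 18 combod18t had 86.2 against 114 CPM in the C1q cluster, a log2 ratio of -0.40 (-0.73 to -0.10) beside haemoglobin at 1574 CPM in combod18t, and 289 against 321 in the monocyte-like cluster, a ratio whose interval included 0 (-0.32 to 0.02). In the states with few combod18t cells it was higher, with 417 against 189 CPM in the Ly6i Lpl Cxcl9 cluster (11 and 28 cells) and 342 against 216 in the Ccl12 Ccl7 cluster (14 and 195 cells), where the neutrophil markers stood at 9183 and 1023 CPM.

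Counted together, 1 of the 8 genes (Mmp12) was lower by log2 1 or more in Combined against CTX and 0 were higher, where 0.38% of 4208 expressed genes were lower by that much and 0.143% higher. In combod18t against ctxd18t 2 members (Ecm1 and Mmp12) were lower and 0 higher, against 1.12% and 0.428% of expressed genes. Since these comparisons chose the set, nothing is read from the counts. Of the members, 7 passed the filter for expressed genes, at least 100 counts over the 5 libraries and 50 CPM in at least 1 of them, and Mmp12 did not. Among those 7, the members included in the shares of expressed genes, 0 were lower or higher in the first pair and 1, Ecm1, was lower in the second. The median log2 ratio of the 8 members was -0.01 in the first pair and 0.01 in the second, against 0.06 and 0.03 over all expressed genes.

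**Figure D4:**
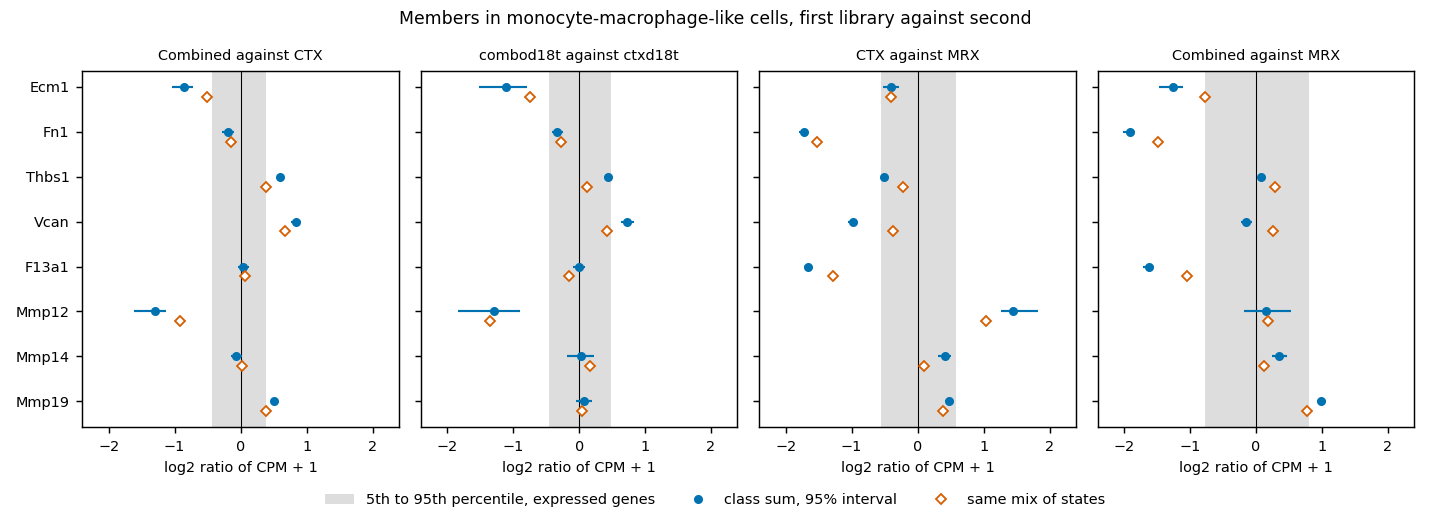
Log2 ratios of CPM + 1 of the 8 genes in monocyte-macrophage-like cells for the 4 comparisons: filled circles with 95% counting intervals are class sums, open diamonds give both libraries the same mix of states, and the grey band spans the 5th to 95th percentile of expressed genes. Ecm1 and Mmp12 lie left of the band in both pairs, Vcan lies right of it for class sums, and Fn1 and F13a1 lie far left in the comparisons with MRX.

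Against MRX, the genes fell into other groups. Both of the following comparisons use the same MRX library, so they are given side by side and not combined. Fn1 had a log2 ratio of -1.73 in CTX (-1.80 to -1.67) and -1.91 in Combined (-2.02 to -1.83), and F13a1 of -1.66 and -1.62. Vcan had -0.98 in CTX and -0.15 in Combined, and Thbs1 -0.51 and 0.08. Both directions in Combined depended on the processing. Vcan turned to 0.18 with thinning, with an interval that included 0 (-0.10 to 0.46). Thbs1 turned to -0.095 with the mixed clusters kept, -0.019 at resolution 0.5 and -0.054 when each library was clustered separately. Mmp12 had 1.45 in CTX (1.26 to 1.82) and 0.16 in Combined (-0.19 to 0.53). By state, in MRX, CTX and Combined, Mmp12 was 10.6, 43.4 and 31.6 CPM in the C1q cluster and 38.0, 37.7 and 10.9 in the Ccl12 Ccl7 cluster. It was 10.0, 17.9 and 8.80 CPM in the Ly6i Lpl Cxcl9 cluster and 2.71, 7.37 and 0 in the monocyte-like cluster. Only 31 of 1365 class cells had an Mmp12 count in MRX. Mmp19 had log2 ratios of 0.48 and 0.99, and Mmp14 of 0.41 and 0.35. Ecm1 had -0.40 in CTX (-0.52 to -0.29) and -1.26 in Combined (-1.47 to -1.11).

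By count, 2 members (Fn1 and F13a1) were lower by log2 1 or more in CTX against MRX and 1 (Mmp12) was higher, against 1.38% and 2.04% of expressed genes. In Combined against MRX 3 members (Ecm1, Fn1 and F13a1) were lower and 0 higher, against 3.04% and 3.02% of expressed genes. Among the 7 members that passed the filter for expressed genes, the higher count was 0 in both comparisons. The low Ecm1 in Combined is the value by which the set was chosen, and nothing is read from these counts either. The states were mixed unlike in these libraries, with 44.1% monocyte-like cells in the MRX class, 9.48% in CTX and 9.69% in Combined. With the same mix in both libraries, Fn1 kept a ratio of -1.52 in CTX and -1.48 in Combined, and F13a1 of -1.28 and -1.05, while Vcan went to -0.38 and 0.26 and Ecm1 in Combined to -0.77. Within each of the 4 states Fn1 was lower in CTX than in MRX, from 251 to 101 CPM in the C1q cluster and from 361 to 124 in the monocyte-like cluster. F13a1 was likewise lower in each, from 180 to 79.4 CPM and from 427 to 213 CPM in the same clusters. The values of the monocyte-like cluster mix finer groups in unlike shares, since the group led by Ace made up 8.14% of it in MRX and 33.9% in CTX. Among its cells in the group led by Vcan, F13a1 went from 456 CPM in MRX (434 to 478) to 346 in CTX (314 to 381), and Fn1 from 440 (419 to 462) to 228 (202 to 256).

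Finer clustering split the class into 10 groups. A cluster of 131 cells led by Cd163 and Tmem26, of which 66 came from ctxd18t and 51 from MRX, had the highest Ecm1 within the class, 122 CPM (106 to 141), and also the highest Fn1 (1258 CPM). Its F13a1 (670 CPM) and Mmp12 (68.1 CPM) were the highest values too, but their intervals overlapped those of the next clusters, at 628 and 51.5 CPM. A cluster of 849 cells led by Vcan and Plcb1 had the highest Thbs1, 2072 CPM, and the highest Vcan, 621 CPM, though Vcan, F13a1, Thbs1 and Fn1 are themselves among the leading genes of that cluster. A cluster of 269 cells led by Ace and Adgre4, genes of non-classical monocytes, had 10.6 CPM of Ecm1, 41.1 of Fn1 and 55.5 of F13a1, yet 670 CPM of Thbs1. These pooled levels mix libraries in unlike proportions, with 410 of 849 cells of the Vcan cluster from MRX and 146 of 269 of the Ace cluster from CTX. Within CTX the Vcan cluster and the Ace cluster had 232 and 46.5 CPM of Fn1, 362 and 19.5 of F13a1, and 1479 and 565 of Thbs1. Mmp14 was highest in 2 clusters, led by Tmem119 and Ms4a7 (165 CPM) and by Cxcl9 and Nos2 (162 CPM), whose intervals overlapped.

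**Figure D5:**
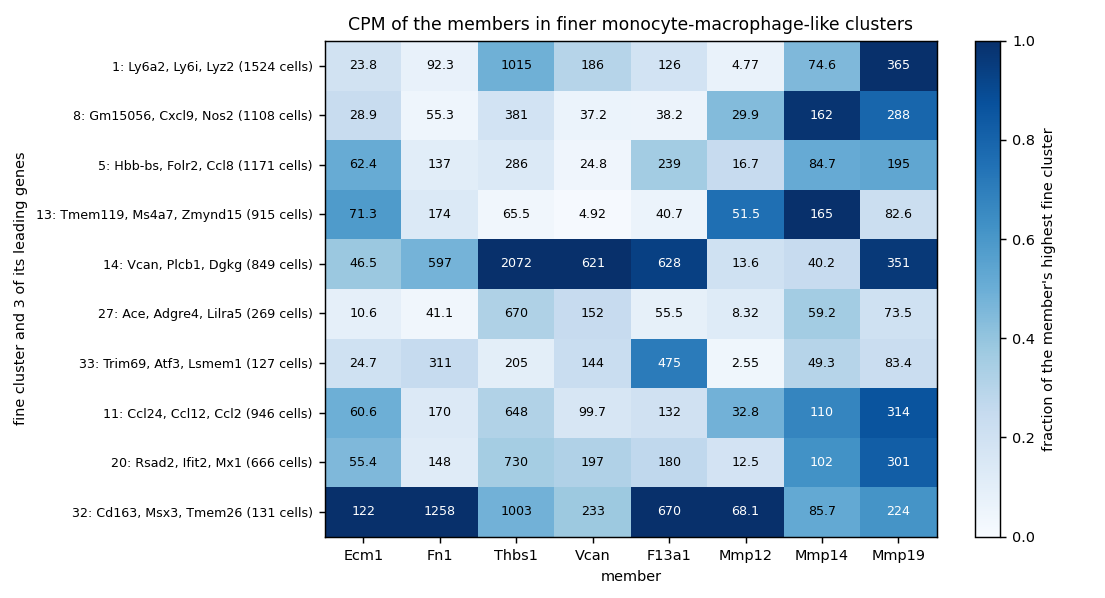
CPM of the 8 genes, pooled over libraries, in 10 finer monocyte-macrophage-like clusters named by number, 3 of the leading genes and cell number, with the colour giving the fraction of each gene's highest cluster. Ecm1, Fn1, F13a1 and Mmp12 peak in cluster 32, and Thbs1 and Vcan in cluster 14.

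The genes whose levels ran most like each member over the 17 combinations of cluster and library were taken from 4782 genes, and all values are descriptions. For Ecm1 these were Lgals1 (Pearson r 0.88), Eif4ebp1 (0.84) and Cyp4f18 (0.82). For Vcan they were Plcb1, Ifitm6 and Eps8 (all 0.98), and for Thbs1 Ifitm6 (0.98) and Trem1 (0.96). Fn1 ran most like Lcn2 (0.91), Sgms1 (0.90) and Apobr (0.89), and F13a1 like Emp1 (0.96), Noct (0.92) and Cux1 (0.91). Mmp14 ran most like Gm56768 (0.97), Axl (0.97) and Acp2 (0.95), where Axl is a receptor of the same family as MERTK. Mmp19 ran most like Zyx (0.97), Macroh2a1 (0.95) and Anxa6 (0.93), and Mmp12 like Plekha2 (0.86), Vipas39 (0.79) and Dck (0.79). Among the members themselves, Fn1 and F13a1 had r of 0.93 and Thbs1 and Mmp14 of -0.82, while Ecm1 reached at most 0.42, with Mmp12.

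Of 161 other matrix and remodelling genes in 9 role groups, 44 passed the expression filter in the class. In Combined against CTX 0 of the 44 were lower and 0 higher by log2 1 or more, with a median ratio of -0.02, where 0.38% of expressed genes were lower and 0.143% higher. In combod18t against ctxd18t 2 were lower, Spp1 and Sdc4, and 0 higher, with a median of -0.07, where 1.12% of expressed genes were lower and 0.428% higher. Spp1, the gene of the secreted adhesion protein osteopontin, was 811 CPM in MRX, 363 in CTX and 264 in Combined, with 621 in ctxd18t against 213 in combod18t, so that both combination labels were the lowest. Its log2 ratio was -0.46 in Combined against CTX (-0.51 to -0.41) and -1.54 in combod18t against ctxd18t (-1.66 to -1.43). Sdc4, the gene of syndecan-4, a membrane proteoglycan that binds fibronectin, was 341 CPM in CTX and 326 in Combined, and 476 in ctxd18t and 149 in combod18t.

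The gene with the highest mean level in each role group gives the background of its group. Srgn, the gene of the granule proteoglycan serglycin, had log2 ratios of -0.13 and -0.91 in the first and the second pair. Cd44, the hyaluronan receptor, had 0.48 and 0.28, and Plaur, the urokinase receptor, 0.49 and 0.39. Tgfb1, the gene of TGF-beta 1, had 0.15 and -0.06, Adam17, a shedding protease, 0.15 and 0.45, and P4ha1, a collagen prolyl hydroxylase, -0.26 and -0.38. Slpi, a serine protease inhibitor, had 0.38 and -0.41, and Cemip2, a hyaluronidase of the cell surface, 0.09 and -0.14. Mmp8, a collagenase typical of neutrophils and the only other metalloproteinase of the list that passed the filter, was 50.9 CPM in ctxd18t and 54.1 in combod18t and 7.64 to 19.3 CPM in the other 3 libraries.

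Against MRX, 4 of the 44 were lower in CTX (Spp1, Mmp8, Adam19 and Itgb5) and 3 higher (Plgrkt, Cd36 and Sdc4), where 1.38% and 2.04% of expressed genes were, the names of Adam19, Itgb5, Plgrkt and Cd36 being given after their values were seen. In Combined against MRX 7 were lower and 1, Plgrkt, was higher, at 174 against 70.2 CPM, where 3.04% and 3.02% of expressed genes were. The median of the 44 was -0.18 in each of these comparisons, against -0.002 and 0.05 over all expressed genes. Cd36, a scavenger receptor that binds thrombospondin-1, was 41.9 CPM in MRX, 122 in CTX and 68.3 in Combined.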

How the data were processed

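The members and gene lists were chosen with earlier results of these data known. The authors deposited raw UMI counts, whole numbers for each gene in each barcode called as a cell. Per the labels' protocols the reads were processed with Cell Ranger 9.0.1, and per the submitters' processing notes the genome build was GRCm39 and Seurat 5.2.0 was used.

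Cells with at least 200 genes and at most 15% mitochondrial counts were kept. Scrublet's automatic threshold marked under 0.5% of cells, so the top 5% of scores per library were removed (160 to 392 cells, ties kept). Each cell was scaled to 10000 counts before the log transform, and 2000 variable genes, without the members, the 161 listed genes, cell cycle, mitochondrial, ribosomal, haemoglobin, antigen receptor and histone genes, gave 30 principal components. A graph of 15 neighbours was clustered with Leiden (scanpy 1.11.5, leidenalg 0.10.2) at resolution 1 over all libraries without integration, giving 24 clusters; finer groups are from resolution 2 (38 clusters). Class scores average the 5 best markers of a list, each scaled to its highest cluster, and at least 3 markers had to be seen in 10% of the cells of a named cluster. A cluster was called mixed and left out if its second score reached 0.4 times the first and its depth exceeded 2 times that of its libraries, a rule set after seeing the data.

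Counts were summed over a class and given as CPM (exact Poisson intervals). The pseudocount of 1 CPM in the log2 ratios shrinks those of low genes. Ratio intervals are exact conditional binomial ones without it, and shares have Clopper-Pearson intervals. None of these intervals holds more than counting error, and no p-value was computed, since each label has 1 library. The ratio step was tested on simulated data. Named genes are the 8 members, the listed genes with at least 100 counts and 50 CPM whose log2 ratio reached 1 or -1 in either pair, the highest gene of each role group and the 3 genes, other than members, most like each member over units of at least 50 cells. A few genes that these rules or the clusters' leading genes would name are not reported here. The 11 alternatives are given in the closing section.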

Additional observations from a re-analysis of the deposited data

Results flagged for a closer look

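None of the 8 members moved in opposite directions in the 2 pairs with both counting intervals away from 0. Of the 52 genes looked at in monocyte-macrophage-like cells, the 8 members and 44 listed genes, 9 listed genes did so, and the difference between the pairs was not tested, because each label has 1 library. Of all 4208 expressed genes, 506 did the same by these counting intervals, which is 12.02%. Values are log2 ratios for Combined against CTX, then combod18t against ctxd18t, then the first minus the second.

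Those higher under the first combination label and lower under the second were Adam8, a membrane protease (0.21, -0.93, difference 1.14), Slpi, a serine protease inhibitor (0.38, -0.41, difference 0.79), F10, the gene of coagulation factor X (0.23, -0.52, difference 0.75), Itgav, an integrin chain (0.26, -0.40, difference 0.66), and Smad7, an inhibitor of TGF-beta signalling (0.13, -0.22, difference 0.35). Those lower under the first and higher under the second were Tgfbr1, a TGF-beta receptor (-0.15, 0.64, difference -0.80), Itga9, an integrin chain and a leading gene of the C1q cluster (-0.56, 0.16, difference -0.72), Itgb5, an integrin chain (-0.50, 0.19, difference -0.68), and Skil, a repressor of TGF-beta targets (-0.22, 0.17, difference -0.40).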

How the results depend on the processing

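No paired analysis was possible because each label has 1 library, and for the same reason no replicate could be left out. In each of the 4 comparisons 11 alternatives were run. The Ecm1 ratio for Combined against CTX, -0.86, went to -0.49 when cells were thinned to 1000 UMIs (-0.99 to -0.03, an interval that includes -0.86). It went to -0.69 with a pseudocount of 10 CPM and to -0.51 with the same mix of states. For combod18t against ctxd18t, -1.11, it reversed to 0.13 with thinning (-1.06 to 1.204), which leaves 10 counts in combod18t. It went to -0.74 with the same mix of states, which gives weight to combod18t states of 11 and 14 cells. For CTX against MRX, -0.40, it went to -0.61 with thinning (-0.94 to -0.28). For Combined against MRX, -1.26, it went to -1.10 with thinning (-1.65 to -0.61), to -1.04 with the pseudocount of 10 CPM and to -0.77 with the same mix. All other alternatives left the Ecm1 ratio within its counting interval.

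The count of members lower by log2 1 or more in Combined against CTX, 1, went to 0 with thinning, with the pseudocount of 10 CPM, with averaging CPM over cells and with the same mix of states, and the count of higher members, 0, went to 1 with thinning. In combod18t against ctxd18t the 2 lower members became 1 with thinning and with the same mix, and 0 with the pseudocount of 10 CPM and with averaging CPM over cells, and the 0 higher members became 1 when each library was clustered separately. In CTX against MRX the 1 higher member became 0 with thinning, the pseudocount of 10 CPM and averaging CPM over cells. In Combined against MRX the 0 higher members became 1 with thinning and with averaging CPM over cells, and the 3 lower members became 2 with the same mix, where Ecm1 was -0.77. In CTX against MRX the 2 lower members became 3 with the mixed clusters kept, at resolution 0.5 and when each library was clustered separately.

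Among the other members, ratios whose interval had excluded 0 reversed as follows. For combod18t against ctxd18t, Fn1 went to 0.035 when each library was clustered separately, and Thbs1 to -0.16 with the mixed clusters kept and to -0.27 at resolution 0.5. For Combined against MRX, Thbs1 went to -0.095 with the mixed clusters kept, to -0.019 at resolution 0.5 and to -0.054 when each library was clustered separately. In that comparison Vcan went to 0.18 with thinning (-0.10 to 0.46) and to 0.26 with the same mix. With the mixed clusters kept or at resolution 0.5 the class of combod18t grew from 214 cells to 371 and 370. Median-of-ratios scaling shifted log2 ratios by -0.06 to -0.01. By construction thinning, the fixed mix and the pseudocount change depth, weights or low values. The cause of the shift was not tested for any alternative. The number of counts limits combod18t most, at 2993931 in the class from 214 cells with a median of 12768.5 UMIs.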
